A study of Drosophila melanogaster with 16 samples.

Results

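Outside the known immune genes, 10 of the 17039 genes measured were chosen by their shift between proventriculi of axenic flies and of flies carrying LpWF, a strain of Lactiplantibacillus plantarum: CG31705, Naprt, Agps, anchor, Alp4, CG4115, CG1998, CG8321, TP53INP and CG11267. The choice rested on a small unadjusted p and on little overlap between 5 LpWF and 5 axenic libraries. The values of that contrast are therefore a description and carry no test here. The flies of all groups were mated Canton-S females, adult and raised axenically, and the labels give no age. Axenic flies received no bacteria, whereas LpWF was added to the culture during adulthood for the other groups. RNA was sequenced from 5 libraries of axenic proventriculus (PV), 5 of PV with LpWF, 3 of crop with LpWF and 3 of salivary gland (SG) with LpWF, each from pooled organs. PVs were dissected with as little crop duct as possible, while crops kept their ducts. For PV and crop, total RNA depleted of ribosomal RNA (rRNA) was sequenced, and for SG poly(A)-selected RNA.

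The PV is a folded valve at the junction of foregut and midgut, where the peritrophic matrix is made and where commensal lactobacilli settle. The crop is a foregut pouch that stores food, and the SG secretes into the mouthparts. The members belong to no single pathway. Naprt is nicotinate phosphoribosyltransferase, which feeds nicotinic acid into NAD synthesis. Agps is alkylglycerone-phosphate synthase, a peroxisomal enzyme that makes the ether bond of ether lipids. CG1998 belongs to the fatty acid hydroxylase superfamily, whose members oxidise fatty acids and sterols. Alp4 is an alkaline phosphatase known from the Malpighian tubule, and CG4115 encodes a protein with a C-type lectin domain. The membrane protein encoded by anchor is related to mammalian GPR155 and affects BMP signalling in the wing. TP53INP, also called DOR, is an ecdysone receptor coactivator with a role in autophagy. CG11267 is a predicted mitochondrial Hsp10, the co-chaperonin of Hsp60. No role is given for CG31705 or CG8321.

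The genes are spread over 5 chromosome arms of build BDGP6. CG31705 (FBgn0028490) lies on 2L from 11523021 to 11528205 on the minus strand, and Naprt (FBgn0031589) on 2L from 4189340 to 4198071 on the minus strand. Agps (FBgn0033983) lies on 2R from 14929703 to 14934861 on the minus strand, and CG8321 (FBgn0033677) on 2R from 12033946 to 12036260 on the plus strand. On 3L are anchor (FBgn0036741, 17621824 to 17630971), TP53INP (FBgn0035542, 4406943 to 4420648) and CG11267 (FBgn0036334, 13016050 to 13016903), all on the plus strand. On 3R are Alp4 (FBgn0016123, 31048929 to 31052540) and CG4115 (FBgn0038017, 12360008 to 12363255), both on the plus strand. CG1998 (FBgn0030485) lies on X from 13409369 to 13413074 on the minus strand. None of the members neighbours another. The nearest tested gene on each side, 20 genes in all, had log2 fold changes with LpWF from -0.57 to 0.34 with a median of -0.02. CG1998 lies 46 bases from GstT4 and Naprt 56 bases from lectin-24Db, each on the opposite strand. Agps overlaps CG12853, which lies on the opposite strand and was at 0.287 CPM on average in PV.

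Reads assigned to genes ran from 18186391 to 45500807 per library. rRNA took over 25% of them in axenic replicates 4 and 5 and in LpWF replicates 4 and 5, between 27.9% and 43.4%, and less in the other PV libraries. Summed markers of PV epithelium (Muc68D, Pgant4, Chs2 and Mur29B) were at 11963 to 23978 TPM over protein-coding genes in PV, 603 to 3638 in crop and 0.189 to 2.52 in SG. Summed SG markers were at 5571 to 7685 in SG and at most 66.5 elsewhere. Nothing in the labels says that libraries of a group came from separate cultures, so the p-values given measure the spread between these libraries, which may be technical.

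In PV, 9 members were lower and 1 was higher with LpWF, and in none of the 10 did the 5 LpWF libraries overlap the 5 axenic ones. Levels are read counts scaled to library size (CPM) after trimmed-mean (TMM) normalization. Over all 9360 genes tested, 0.94% had all LpWF libraries below all axenic ones and 0.908% had them above. The rule used this contrast, so nothing is read from the members' count. Mean levels with LpWF were between 35.0% and 77.1% of the axenic mean for the 9 lower members and 144.7% for CG11267. The median log2 fold change was -0.54 over the members and 0.00 over all genes tested. Of all genes, 0.0107% had an adjusted p under 0.05 by the quasi-likelihood test of edgeR (Benjamini-Hochberg), which is 1 gene. That gene is the member CG31705, which the rule picked from this contrast, so nothing is read from its call.

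CG31705 led the ranking by unadjusted p. It was at 120, 121, 123, 95.9 and 110 CPM in axenic replicates 1 to 5 and at 67.0, 68.5, 66.7, 68.5 and 67.5 CPM in LpWF replicates 1 to 5. The LpWF values were nearly equal, with a coefficient of variation (CV) of 1.21% against 9.92% in axenic PV, and the lowest axenic library was 1 of those rich in rRNA. The group means of 114 ± 11.3 and 67.6 ± 0.818 CPM (SD, n = 5 each) gave a log2 fold change of -0.75 (SE 0.07).

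Of the enzymes of NAD and lipid metabolism, Agps was the most abundant member in PV. It was at 347, 383, 348, 359 and 371 CPM in axenic replicates 1 to 5 and at 259, 223, 242, 214 and 297 CPM in LpWF replicates 1 to 5. A gap of 50.0 CPM separated the groups, and the log2 fold change was -0.55 (SE 0.09). Naprt was at 133, 128, 144, 139 and 143 CPM in axenic replicates 1 to 5 and at 106, 83.3, 93.5, 86.5 and 108 CPM in LpWF replicates 1 to 5. Its groups were 20.1 CPM apart, with a log2 fold change of -0.53 (SE 0.08). CG1998 was at 95.0, 101, 98.7, 130 and 116 CPM in axenic replicates 1 to 5 and at 72.2, 60.1, 68.5, 72.1 and 89.8 CPM in LpWF replicates 1 to 5. Its groups came within 5.19 CPM of each other, and the log2 fold change was -0.58 (SE 0.11). In all of these enzymes LpWF replicate 5 was the highest of its group.

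Alp4 had the largest fold change and the lowest level of the list. It was at 5.03, 4.79, 3.61, 3.68 and 3.69 CPM in axenic replicates 1 to 5 and at 1.92, 1.32, 0.859, 2.23 and 0.962 CPM in LpWF replicates 1 to 5, which rests on 96 to 175 and 20 to 71 estimated reads per library. The log2 fold change was -1.51 (SE 0.27), and the CV within LpWF was 41.1%. Of 7 Malpighian tubule markers, CapaR was listed at 0 in each of the 10 PV libraries. Of the 4 tubule markers tested, 2 were lower with LpWF, and the sum of all 7 ran from 386 to 459 CPM in axenic PV and from 324 to 389 CPM with LpWF. The part of these markers in the level of Alp4 was not tested.

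The membrane protein gene anchor was at 163, 141, 157, 167 and 172 CPM in axenic replicates 1 to 5 and at 114, 128, 123, 115 and 124 CPM in LpWF replicates 1 to 5. Its groups were 13.4 CPM apart, and the log2 fold change was -0.41 (SE 0.07). TP53INP was at 98.4, 80.8, 74.1, 90.2 and 79.4 CPM in axenic replicates 1 to 5 and at 62.2, 60.6, 68.9, 60.3 and 66.7 CPM in LpWF replicates 1 to 5. The lowest axenic library lay 5.27 CPM above the highest LpWF library, with a log2 fold change of -0.41 (SE 0.08). CG4115, the lectin-like gene, was at 45.2, 53.9, 53.5, 54.2 and 61.7 CPM in axenic replicates 1 to 5 and at 30.8, 35.5, 36.4, 36.0 and 44.8 CPM in LpWF replicates 1 to 5. Only 0.378 CPM lay between its groups, the narrowest gap of the 10, and the log2 fold change was -0.55 (SE 0.11). CG8321 was at 39.6, 35.9, 39.3, 38.2 and 40.8 CPM in axenic replicates 1 to 5 and at 30.7, 28.3, 28.8, 27.6 and 34.0 CPM in LpWF replicates 1 to 5. Its shift was the smallest of the list, with a log2 fold change of -0.38 (SE 0.08).

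CG11267 was the one member that was higher with LpWF. It was at 11.3, 11.3, 10.9, 12.7 and 10.5 CPM in axenic replicates 1 to 5 and at 14.8, 16.3, 18.4, 16.1 and 16.5 CPM in LpWF replicates 1 to 5. The groups were 2.03 CPM apart, with means of 11.4 ± 0.837 and 16.4 ± 1.32 CPM (SD, n = 5 each) and a log2 fold change of 0.53 (SE 0.09). The median CV of the members was 8.64% in axenic PV and 10.2% with LpWF, beside 15.3% and 14.0% over all genes tested. The rule favours genes with a small spread within these groups, so nothing is read from that difference.

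**Figure D1:**
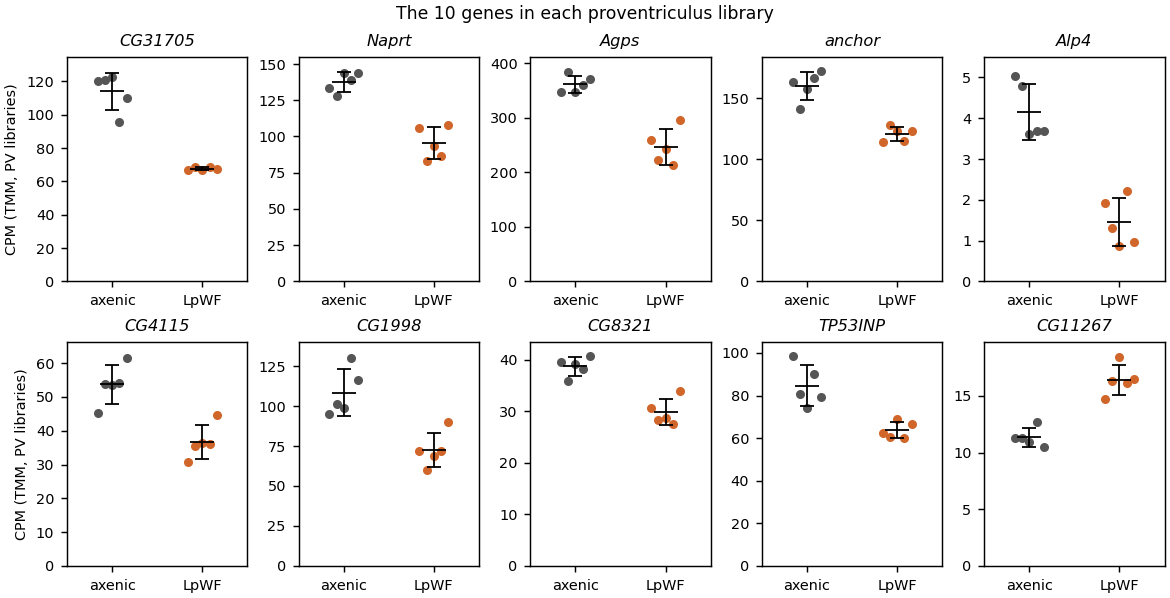
Each point is the CPM of 1 gene in 1 PV library, with axes that start at 0, axenic in grey and LpWF in orange. Bars give the mean ± SD of 5 libraries. No orange point of CG31705 lies above 68.5 CPM and no grey one below 95.9, and CG11267 alone has its LpWF points on top.

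The members took ranks 1 to 5, 7 and 9 to 12 by unadjusted p. Ranks 6 and 8 were EbpIII and takeout (to), which are not in the list, with log2 fold changes of -0.59 and -0.52. The member just inside the limit was TP53INP, at rank 12. Just outside were tim, the clock gene timeless, at a log2 fold change of -0.77 (SE 0.15) with 95.6 to 148 CPM in axenic and 56.6 to 93.1 CPM in LpWF libraries, and CG8229 at -0.38 (SE 0.08). Their groups did not overlap either.

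Sizes of the shift varied between subsets of the libraries, while the choice of members without overlap fixes their direction. In the 6 libraries with up to 25% rRNA the log2 fold changes of the lower members lay between -1.71 for Alp4 and -0.33 for anchor, and that of CG11267 was 0.57. In the 4 libraries with more rRNA they lay between -1.19 for Alp4 and -0.36 for CG8321, and CG11267 was at 0.49. Leaving out 1 library at a time moved CG31705 between -0.81 and -0.72, Alp4 between -1.71 and -1.36 and CG11267 between 0.49 and 0.58. The groups of anchor and TP53INP overlapped on the scale of TPM over protein-coding genes, and those of CG4115 in CPM over protein-coding genes.

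**Figure D2:**
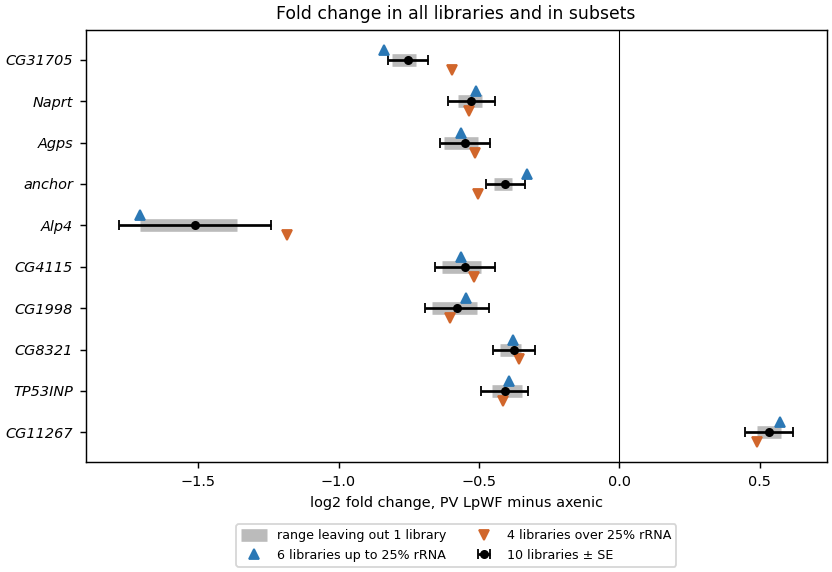
The x axis gives the log2 fold change of LpWF minus axenic PV for the 10 genes on the y axis, from all 10 libraries (black, ± SE), from fits without 1 library (grey span) and from the libraries with up to or over 25% rRNA (triangles). The choice of members fixes the side of 0 on which the marks of a gene lie, and the subsets are farthest apart for Alp4, at -1.71 and -1.19.

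Some markers of cell types in the dissected tissue had lower values with LpWF as well, and others did not. The list for the esophagus and the ectoderm-derived cells of the PV held bond, vir-1, takeout, Jhbp14, Cpr49Ae and Cpr67B. All 6 of these genes had negative log2 fold changes, from -0.71 to -0.15 with a median of -0.52. Their sum ran from 3453 to 3994 CPM in axenic PV and from 2193 to 3234 CPM with LpWF, so that the groups did not overlap. Of this sum takeout alone held 2085 to 2286 CPM in axenic and 1253 to 1802 CPM in LpWF libraries. Takeout was at rank 8 of the contrast used to choose the members, so nothing is read from the gap between the sums. The median of the 9 lower members was -0.55. LpWF replicate 5 had the highest sum of this list in its group and was also the highest LpWF library for 5 of the 9 lower members. All 7 tested fat body markers were lower too, with a median of -0.70 and sums of 4122 to 6597 and 3042 to 5172 CPM. All 4 genes of the PV epithelium list were lower as well, with a median log2 fold change of -0.11. Their sums overlapped, at 49826 to 94572 CPM in axenic and 39618 to 73982 CPM in LpWF libraries. All 6 visceral muscle markers were lower, with a median of -0.15. Of 8 midgut enzymes 2 were lower, with a median of 0.60, and the sums of both lists overlapped. Of 6 neuron markers 1 was lower, with a median of 0.11, and of 4 garland nephrocyte markers 1 was lower, with a median of 0.25. All 4 hemocyte markers were lower, with a median of -0.26. So were the 2 markers of the corpus allatum, with a median of -0.51, and the 1 of the corpus cardiacum, at -0.75. The sums of each of these lists overlapped between the groups. None of these marker genes had an adjusted p under 0.05 by edgeR. The part of these markers in the members' values was not tested, and in such bulk samples fewer cells of a type cannot be told apart from less RNA per cell.

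**Figure D3:**
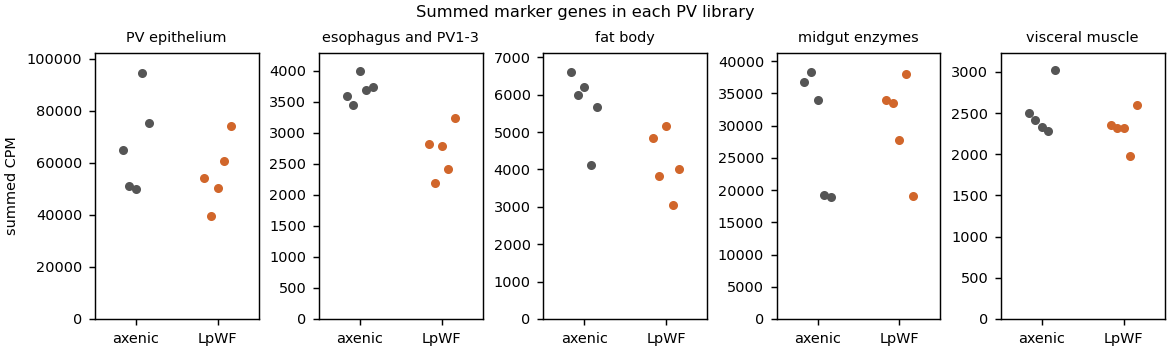
Each point is the CPM summed over a marker list in 1 PV library, axenic in grey and LpWF in orange. The esophagus and PV1-3 list alone of the 5 shown separates the groups, at 3453 CPM and above in axenic and 3234 CPM and below in LpWF libraries. Takeout, a gene of this list, separates them by itself.

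The genes whose levels followed a member most closely were found by the root mean square (RMS) difference between log2 CPM profiles over the 10 PV libraries, each centred on its mean. All points share the 2 groups of libraries used to choose the members, so these are descriptions. For Naprt they were takeout (0.04) and qsm (0.09), and for Agps takeout (0.07) and Hacd1 (0.09), a fatty acid elongation enzyme. For CG8321 they were CG1271 (0.06) and CG8814 (0.06). For anchor they were CG3630 (0.09) and spz (0.10), which encodes the Toll ligand. For CG1998 they were EbpIII (0.09) and Cad87A (0.11), and for TP53INP Cht9 (0.11) and Pex5 (0.11), the receptor that imports peroxisomal enzymes. For CG4115 they were osy (0.13) and aos (0.13), and for CG11267 CG4884 (0.13) and Nprl2 (0.14). CG31705 had no profile as close, with CG4004 (0.20) and CG31445 (0.21). Takeout, which is in the esophagus list above, was thus nearest to Naprt and Agps alike.

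The question whether LpWF changed which transcript a gene used was tested on 7 members with at least 2 transcripts of 10 or more reads. The share of the main transcript changed in 0 of 7 by a two-sided exact permutation test of 5 libraries against 5, which can reach p = 0.00794 at the smallest, and 0 of 7 had an unadjusted p under 0.05. Agps-RC held 89.1 ± 6.78% of Agps reads in axenic and 91.0 ± 3.82% in LpWF PV (SD, n = 5 each), and anchor-RA held 82.8 ± 2.76% and 80.8 ± 3.09% of anchor reads. The lowest p was that of CG1998-RB, at 98.3 ± 0.336% and 97.5 ± 0.894% (exact permutation p = 0.0794, Benjamini-Hochberg adjusted over the 7 genes 0.556). The largest difference was that of CG8321-RA, at 60.1 ± 10.7% and 66.8 ± 6.06% (exact permutation p = 0.27, adjusted 0.689).

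Shares of overlapping transcripts varied widely between libraries. CG31705-RD ran from 39.4% to 69.9% of CG31705 in axenic PV, and TP53INP-RA from 25.7% to 55.5% of TP53INP with LpWF, so small changes in share were not detectable here. TP53INP-RG, named after its values were seen, had 498.3 estimated reads in axenic replicate 5 and 0 in each other PV library. All PV reads of Alp4 fell on Alp4-RA, whereas all 60 reads of crop replicate 1 fell on Alp4-RB. In crop replicates 2 and 3 all reads, 199 and 47, fell on Alp4-RA as in PV.

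The crop and the PV of flies with LpWF were compared to place the members between the tissues. The genes anchor, TP53INP and CG8321 were higher in crop than in LpWF PV and than in all 10 PV libraries. In all, 6 members were higher and 1 was lower in crop than in LpWF PV at an adjusted p under 0.05 by edgeR, beside 26.1% and 25.5% of the 9713 genes tested. The LpWF libraries had also served to choose the members, so crop was compared with all 10 PV libraries too: 4 members were then higher and 1 lower, beside 27% and 26.8% of genes. CG31705, Naprt and CG4115 were no longer called, at adjusted p = 0.344, 0.267 and 0.595, and CG11267 became so.

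The gene anchor stood out by size. It was at 753, 671 and 724 CPM in crop replicates 1 to 3 and at 130 to 147 CPM in LpWF PV, with TMM over PV and crop together. The log2 difference was 2.39 (SE 0.08, adjusted p = 4e-08), and 2.16 (adjusted p = 7.18e-10) against all 10 PV libraries. TP53INP was at 169, 133 and 184 CPM in crop and at 67.8 to 78.2 CPM in LpWF PV, a log2 difference of 1.18 (SE 0.11, adjusted p = 1.51e-05). CG8321 was at 70.6, 76.1 and 70.4 CPM in crop and at 31.1 to 38.6 CPM in LpWF PV, with a log2 difference of 1.11 (SE 0.09, adjusted p = 6.59e-06). No crop library of these 3 genes overlapped the LpWF PV, and the same held for CG31705 and Naprt, which were above, and CG1998, which was below. The share of all genes without such overlap was not counted, so nothing is read from this. Crop libraries held PV epithelium markers at 603 to 3638 coding TPM, beside 11963 to 18375 in LpWF PV. Visceral muscle markers were at 23994 to 25775 coding TPM in crop and 1407 to 1862 in LpWF PV. Those of esophagus and PV1-3 were at 11958 to 13831 in crop and 3325 to 4260 in LpWF PV. The part of these markers in the differences was not tested.

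The shifts of the other members were smaller. The log2 difference of crop minus LpWF PV was 0.70 for CG31705 (SE 0.07, adjusted p = 3.77e-05), 0.52 for Naprt (SE 0.10, adjusted p = 0.00216) and 0.44 for CG4115 (SE 0.13, adjusted p = 0.0209). These LpWF libraries had served to choose the genes for low values. Against all 10 PV libraries the differences were 0.26, 0.22 and 0.13, and none of them was called. In the comparison with LpWF PV, CG4115 lost its call without crop replicate 2 (adjusted p = 0.064) and without crop replicate 3 (adjusted p = 0.099). CG1998 was the only member lower in crop, at -0.36 (SE 0.13, adjusted p = 0.0355), and at -0.70 (adjusted p = 0.0116) against all 10 PV libraries. Its call was lost without LpWF replicate 1 (adjusted p = 0.0581) and without each crop library, with adjusted p = 0.0732, 0.0576 and 0.133 for replicates 1 to 3. CG11267 gave 0.29 (SE 0.13, adjusted p = 0.0814), and 0.43 (adjusted p = 0.0101) without crop replicate 2.

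Agps and Alp4 did not pass. Agps was at 334, 251 and 247 CPM in crop and at 241 to 337 CPM in LpWF PV, a log2 difference of -0.01 (SE 0.14, adjusted p = 0.974). Alp4 was at 1.59, 7.33 and 1.34 CPM in crop, so that its log2 difference of 1.06 (SE 0.58, adjusted p = 0.161) rested on crop replicate 2 and was -0.16 without it. Summed Malpighian tubule markers were at 645 TPM over protein-coding genes in that library and at 726 and 730 in the other crop libraries. Summed PV epithelium markers were at 3638 TPM in that library and at 1726 and 603 in the others. The part of these markers in the level of Alp4 in crop was not tested.

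The scale decides some of these directions. The 10 most abundant genes held 38.2% to 50.9% of protein-coding TPM in PV and 12.2% to 15.5% in crop, and the median gene was 0.99 higher in crop on the log2 scale of coding TPM but at 0.01 on the TMM scale. On the former all 10 members were higher in crop, CG1998 by 0.63 and Agps by 0.97, both less than the median gene. The range over the other members was 1.27 for CG11267 to 3.37 for anchor.

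**Figure D4:**
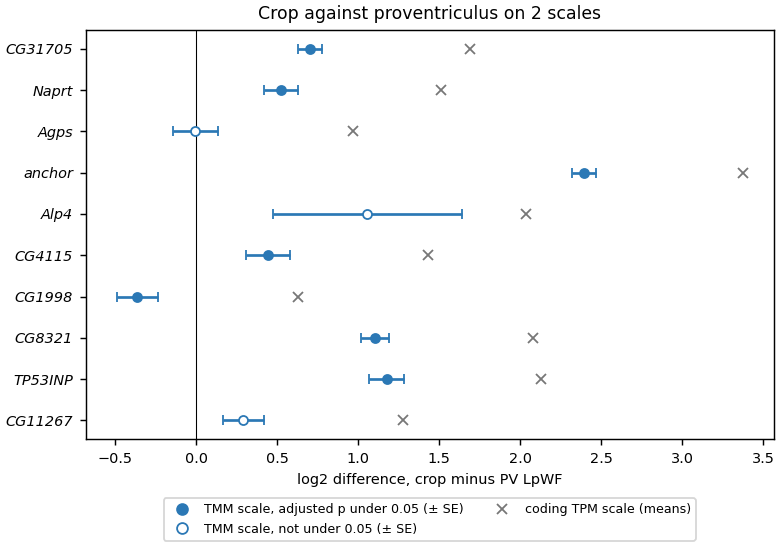
The x axis gives the log2 difference of crop minus LpWF PV for the 10 genes on the y axis, in blue on the TMM scale (± SE, filled where the adjusted p was under 0.05) and as grey crosses for the means of coding TPM. The blue points run from -0.36 for CG1998 to 2.39 for anchor, and every cross lies to the right of its blue point.

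Levels between genes were compared as TPM over protein-coding genes, which takes account of length. In axenic PV the order was Agps (188 ± 5.57 TPM), CG1998 (122 ± 15.4), CG4115 (70.2 ± 7.04), Naprt (63.5 ± 4.94), CG31705 (58.8 ± 6.74), CG8321 (53.5 ± 2.15), TP53INP (49.9 ± 5.91), anchor (49.6 ± 4.21), CG11267 (37.3 ± 2.92) and Alp4 (2.47 ± 0.393), each as mean ± SD of 5 libraries. From CG4115 to anchor, neighbours in this order differed by less than the larger of their SDs. Agps was between ranks 364 and 438 of the 13619 protein-coding genes in axenic PV and Alp4 between ranks 6810 and 7186. In crop anchor was first, at 445, 381 and 432 TPM, followed by Agps at 331, 236 and 245 TPM. The other members but Alp4 had crop means between 122 TPM for CG31705 and 184 TPM for CG8321.

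In SG the order was another one. CG31705 was the highest, at 73.2, 113 and 83.8 TPM in replicates 1 to 3, which is between ranks 185 and 212 of the protein-coding genes. The genes anchor (18.6, 24.2 and 18.8 TPM), TP53INP (19.9, 23.3 and 12.3 TPM), CG8321 (8.49, 12.2 and 11.7 TPM) and CG11267 (10.5, 12.0 and 9.21 TPM) followed, all within the first 1011 ranks. Naprt was at 1.61, 2.36 and 1.79 TPM and CG1998 at 0.584, 0.831 and 0.691 TPM.

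Agps, CG4115 and Alp4 were close to absent from SG. Agps had 10, 24 and 29 estimated reads in SG replicates 1 to 3, a level of 0.0455 to 0.108 TPM. CG4115 had 2, 17 and 6 reads and Alp4 11, 15 and 8. The enzymes of NAD and lipid metabolism and the lectin-like gene were thus all low in SG, beside 41.8 to 148 TPM in LpWF PV. SG differed from PV and crop in its library preparation, which cannot be told apart from the tissue, and its levels were not tested against them. The 10 most abundant genes took 87.7% to 89.2% of protein-coding TPM in SG. Levels were also taken with the 10 highest genes of each group left out. CG31705 was then at 846 ± 136 TPM and Agps at 0.79 ± 0.30 TPM in SG (SD, n = 3 each). Their means in LpWF PV on that scale were 68.1 and 251 TPM. There, SG means exceeded those of LpWF PV for anchor (193 against 72.9), TP53INP (174 against 74.4) and CG8321 (102 against 78.9). With all coding genes kept, the means of these genes were lower in SG. CG31705 had the higher mean in SG on both scales, and the other members the lower.

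**Figure D5:**
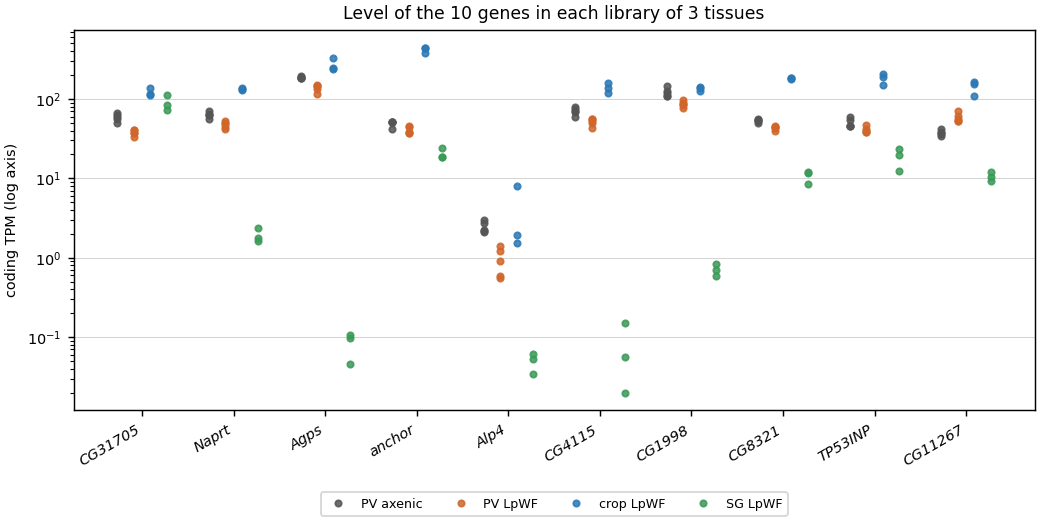
Each point is the TPM over protein-coding genes of 1 gene in 1 library, on a log axis, with the 4 groups in different colours. Agps, Alp4, CG4115 and CG1998 fall below 1 TPM in SG, whereas CG31705 stays between 73.2 and 113 TPM.

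The pathways around the members were described with lists of other genes. In PV, 0 of the list genes had an adjusted p under 0.05 by edgeR and 2 by DESeq2 (Pex5 and Hacd1), and counts at an unadjusted p under 0.05 are set beside 4.34% of all genes lower and 5.36% higher with LpWF. Of 19 tested genes of ether lipids and peroxisomes, where Agps acts, 5 were lower and 0 higher at that limit, with a median log2 fold change of -0.08. Pex5 was at 77.4 ± 2.19 and 61.3 ± 6.27 CPM (SD, n = 5 each) with a log2 fold change of -0.34 (SE 0.07, adjusted p = 0.292). Of 14 tested genes of fatty acid and sterol modification, the setting of CG1998, 5 were lower and 1 higher, with a median of -0.21. Hacd1 was at 240 ± 14.9 and 179 ± 26.3 CPM (SD, n = 5 each) with a log2 fold change of -0.43 (SE 0.10, adjusted p = 0.292). The gene bond of this list is also an esophagus marker.

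Counts in the other lists were lower. Of 12 tested genes of NAD metabolism 1 was lower, v, the tryptophan dioxygenase vermilion, at a log2 fold change of -0.82 (SE 0.34, adjusted p = 0.495), and the median was -0.04. Of 11 mitochondrial chaperones and proteases 2 were higher, with a median of 0.10. Roe1, a GrpE-like partner of mitochondrial Hsp70, was at 0.31 (SE 0.12, adjusted p = 0.495). Of 22 autophagy genes 2 were lower, with a median of -0.07. Atg8a, which coats autophagosomes, was at -0.20 (SE 0.06, adjusted p = 0.458). Of 17 genes of insulin, FoxO and ecdysone response 1 was higher, Tsc1, at 0.25 (SE 0.10, adjusted p = 0.495), and the median was 0.02. Of 13 BMP genes 1 was lower, the receptor sax, at -0.16 (SE 0.07, adjusted p = 0.5), with a median of -0.07. Of 7 C-type lectins 1 was lower, slf, at -0.48 (SE 0.15, adjusted p = 0.442), with a median of -0.06. Only 3 other alkaline phosphatases were tested, with a median of 1.24, and Alp12 was higher at 0.77 (SE 0.33, adjusted p = 0.495), the opposite direction to Alp4. The median was that of Alp5, at 1.17 ± 0.62 CPM in axenic and 2.80 ± 4.86 CPM in LpWF PV (SD, n = 5 each). Alp9 was at 0.72 ± 0.55 and 18.1 ± 39.9 CPM. With LpWF both SDs exceeded the means, so the libraries were very uneven and little is read from this median.

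Between crop and LpWF PV the counts of the same lists, on the TMM scale, stand beside 26.1% of all genes higher and 25.5% lower in crop, and a median of 0.01 over all genes. Of 19 genes of ether lipids and peroxisomes 14 were higher and 1 lower in crop at an adjusted p under 0.05 by edgeR, with a median log2 difference of 0.45, while Agps gave -0.01. Pex6 and Pex10, which serve peroxisomal import, were higher by 1.18 (SE 0.10, adjusted p = 9.57e-06) and 1.06 (SE 0.12, adjusted p = 6.51e-05). Of 14 genes of fatty acid and sterol modification 9 were higher and 2 lower, with a median of 0.86, while CG1998 was lower. CG5065, a fatty acyl-CoA reductase, was at 8926 ± 724 CPM in crop (SD, n = 3), a log2 difference of 2.92 (SE 0.17, adjusted p = 1.06e-06), and Elo68alpha, an elongase, was lower at -2.95 (SE 0.88, adjusted p = 0.0265).

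The BMP list was divided. Of 13 genes 6 were higher and 5 lower in crop, with a median of -0.08. The ligand dpp was higher by 2.89 (SE 0.14, adjusted p = 4.05e-07), at 144 ± 15.0 CPM in crop (SD, n = 3), while its receptor tkv was lower at -2.39 (SE 0.20, adjusted p = 1.37e-05). Of 22 autophagy genes 6 were higher and 6 lower, with Atg16 at 1.52 (SE 0.10, adjusted p = 2.41e-06) and Atg3 at -1.17 (SE 0.11, adjusted p = 2.11e-05). Of 17 genes of insulin, FoxO and ecdysone response 3 were higher and 4 lower, with Thor at -1.19 (SE 0.37, adjusted p = 0.0283) and chico at 0.75 (SE 0.08, adjusted p = 4.38e-05).

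The remaining lists held fewer tested genes. Of 12 genes of NAD metabolism 2 were higher and 1 lower in crop, with KFase at 3.91 (SE 0.34, adjusted p = 1.22e-05) and Sarm, an NAD hydrolase, at 1.55 (SE 0.08, adjusted p = 4.05e-07). Of 11 mitochondrial chaperones and proteases 1 was higher and 3 were lower, with Hsp22 at -1.81 (SE 0.29, adjusted p = 0.000959) and Spg7 at -0.40 (SE 0.12, adjusted p = 0.0216). Of 7 C-type lectins 2 were higher and 3 lower, with a median of -0.40, with lectin-37Da at -6.37 (SE 1.34, adjusted p = 0.00688) and lectin-37Db at -4.98 (SE 0.74, adjusted p = 0.00107). Whether these 2 related genes shared reads was not tested. Of 4 other alkaline phosphatases 0 were called by edgeR, and 1 had an unadjusted p under 0.05, with a median of -4.81. That median rests on Alp5 and Alp9, whose SD in LpWF PV exceeded the mean.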

How the data were processed

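Transcripts of build BDGP6 were quantified by the authors with Salmon in a Nextflow workflow from single-end reads. The deposited estimated counts are per transcript and not normalized between libraries. TPM values were scaled by the authors over all transcripts, noncoding RNA included. How Salmon was told of the strand is not given in the sources used here.

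Values of the 33704 transcripts were added up by gene, using a later Ensembl annotation of the same assembly, and 271 transcripts with no gene there were left out. TPM was rescaled over 13619 protein-coding genes. Rounded counts were tested with edgeR 4.0.16 (TMM, filterByExpr, quasi-likelihood F tests with robust dispersions) on R 4.3.3, and p-values were adjusted over all genes tested. Alternatives were those of the closing section, with DESeq2 1.42.0 among them. Python 3.11.15, scipy 1.17.1 and matplotlib 3.10.9 gave the permutation tests and figures. Both tests were checked on simulated data. No pair of libraries in a group was a copy, and depth ran from 18186391 to 45500807 reads on genes.

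The members and all gene lists were chosen with earlier results of these data known. Of list genes 4 (Sirt2, Nnt, Pex11 and Tim44) matched no symbol, and 9 matched by an older one. Named beside the members are, per list, the gene with the smallest p in PV and up to 2 with the largest difference in crop, and the 2 nearest profiles per member, except that those of Alp4 are not reported here. In PV no list gene reached an adjusted p under 0.05. Libraries were not paired by replicate number.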

Additional observations from a re-analysis of the deposited data

How the results depend on the processing

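The count of genes with an adjusted p under 0.05 in PV was 1 with edgeR. It was 51 with DESeq2, 14 with a term for over 25% rRNA, 0 in the 4 libraries over 25% rRNA and between 1 and 10 without 1 library, the highest without LpWF replicate 5. With the replicate number as a block it was 34 in edgeR and 253 in DESeq2. Deviations of same-numbered axenic and LpWF libraries correlated between r = 0.00 and 0.53 across genes, and 1 of 5 axenic libraries correlated best with its own number, so the block was not used. Among list genes in PV the count of 0 became 2 with DESeq2 (Pex5 and Hacd1), 7 with DESeq2 and the block, and 0 to 1 without 1 library (Hacd1 without LpWF replicate 5). The count of 10 members without overlap was 8 on coding TPM and 9 in CPM over protein-coding genes. The count of 7 members called in crop was 6 with the block, 5 against all 10 PV libraries and 5 to 7 without 1 library. With the block CG1998 lost its call in crop (log2 difference -0.25, edgeR adjusted p = 0.102). The count of 0 changed transcript shares stayed at 0 in each alternative run. The median SG level of the members was 6.24 coding TPM, 5.77 to 6.35 without 1 library and 58.9 without the 10 highest genes of each group. In crop the direction of Agps and Alp4, neither of them called, changed with the setting. Depth limits Alp4 most, with 20 to 175 reads per PV library.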
